A study of Mus musculus with 8 samples.

Results

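The replication-dependent histone genes were examined in RNA-seq counts of the fetal mouse brain. They were taken as every gene whose symbol begins with Hist1h, Hist2h, Hist3h or Hist4h in the GENCODE annotation, 70 of the 54752 genes listed. Of these, 20 genes had 40 or more counts summed over the 8 brains and are the members described here. The 8 brains were whole brains of wild-type fetuses of the strain labelled C57BL/6 (C57BL/6Slac in the study's methods) at E15.5 (embryonic day). In the stress group (4 brains, 2 female and 2 male) the dam had been exposed to CUMS, a schedule of mild stressors in unpredictable order, during gestation, and in the control group (4 brains, 2 female and 2 male) she had not. The 4 control brains were littermates, and so were the 4 stress brains, so condition and litter cannot be told apart. The p-values below measure the spread between littermates.

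Histones package DNA into nucleosomes, with H2A, H2B, H3 and H4 forming the core and H1 binding the linker. The replication-dependent genes sit in clusters, are switched on in S phase when new chromatin is needed, and mostly lack introns. Their mRNAs are the known exception among the messages of animal cells, ending in a short stem-loop in place of a poly(A) tail. The stem-loop binding protein Slbp and the U7 small nuclear RNP direct the cut after the stem-loop. Some of these genes also give polyadenylated transcripts that read past the stem-loop, mostly in cells that have left the cell cycle. The libraries were made from mRNA captured with oligo(dT), which takes RNA with a poly(A) stretch, so the counts describe what that capture retained from each gene.

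The stem-loop was found in an annotated transcript of 46 of the 67 protein-coding genes listed, 21 to 58 bases (median 31) after the stop codon. It was searched as a stem of 6 base pairs beginning with GG around a loop of 4 bases whose base 3 is T, with pyrimidines completing the first strand of the stem, and 8 different letter strings of 16 bases were seen, the commonest in 26 genes. The 5 genes below are shown because they carry most of the results. The first 3 are the members that differed between the groups, and the last 2 have the highest totals. Capitals mark the stem-loop and small letters up to 5 bases on each side, 5′ to 3′, written as DNA from the GENCODE vM21 transcripts (GRCm38, the build called mm10).
Hist1h2ap, chr13:21833029-21833044, minus strand: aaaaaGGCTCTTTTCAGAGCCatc
Hist1h1c, chr13:23739512-23739527, plus strand: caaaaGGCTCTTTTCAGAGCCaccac
Hist1h4i, chr13:22040966-22040981, minus strand: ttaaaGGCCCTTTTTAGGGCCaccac
Hist3h2ba, chr11:58949349-58949364, plus strand: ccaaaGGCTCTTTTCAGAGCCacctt
Hist3h2a, chr11:58955172-58955187, plus strand: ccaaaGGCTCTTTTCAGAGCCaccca
Of these 5, the stem-loop of Hist1h4i differs in stem and loop, and the other 4 have the same 16 letters. The annotated transcript of Hist1h2ap stops 3 bases after the stem-loop, where the printed sequence ends. The other 4 transcripts run on, for 840 bases in Hist1h1c, 330 in Hist1h4i, 169 in Hist3h2ba and 1643 in Hist3h2a, and all 4 hold AATAAA or ATTAAA, the usual poly(A) signals, in their last 50 bases.

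The 70 genes together took 35504 of the 222666442 counts of the 8 libraries, and a handful of genes took nearly all of them. Hist3h2ba, an H2B gene, had 14662 counts and Hist3h2a, an H2A gene near it on chromosome 11, had 9120, so that these 2 genes held 67.0% of the class. Hist2h2be (H2B) followed with 4125, Hist1h2ap (H2A) with 2816, the linker histone gene Hist1h1c with 1204, Hist1h2bc (H2B) with 1137 and Hist1h4i (H4) with 812. These 7 genes held 95.4% of the class, and the remaining genes shared 1628 counts.

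**Figure D1:**
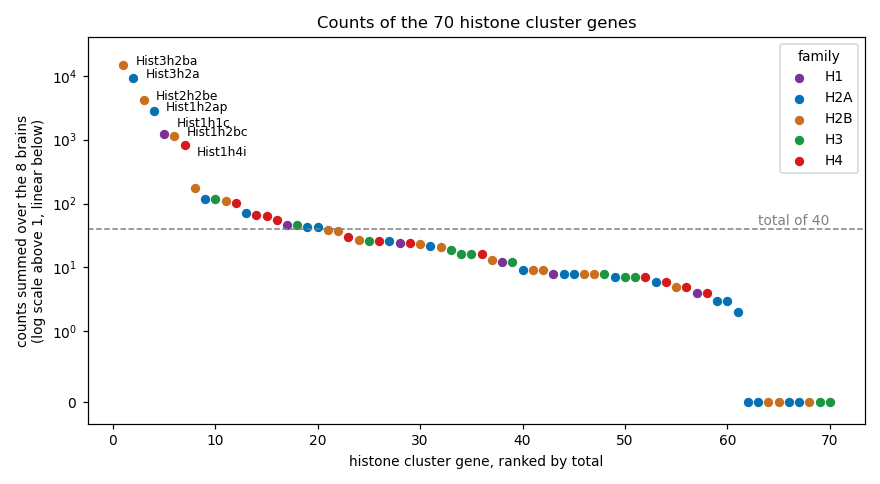
Counts summed over the 8 brains for each of the 70 histone cluster genes, ranked by total and coloured by histone family (log scale above 1, linear below). The first 7 genes lie at 812 or more, the rest at 175 or fewer, the dashed line marks the total of 40, and 9 genes are listed at 0.

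By family, 2 of 6 H1 genes, 6 of 20 H2A genes, 5 of 19 H2B genes, 2 of 12 H3 genes and 5 of 13 H4 genes reached 40 counts. H2B genes took 57.5% of the counts of the class, H2A 34.7%, H1 3.66%, H4 3.43% and H3 0.772%. By cluster, the 3 genes of Hist3 took 67.3%, the 56 of Hist1 20.1%, the 10 of Hist2 12.3% and the single Hist4 gene 0.284%. The protein products differ less than the genes do. The coding sequences of all 13 H4 genes translate to 1 protein, those of the 12 H3 genes to 3, and of the 18 coding H2A genes 9 share 1 protein.

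Just above the threshold were Hist1h2ag and Hist2h2ac with 43 counts each, and just below it Hist1h2bh with 38 and Hist1h2bg with 37. The 50 genes below the threshold had 569 counts in all, with a median of 8. Of these, 9 were listed at 0 in every brain, which at 3 counts over all libraries allows up to 0.0135 CPM (counts scaled to library size) of reads assigned to the gene, for counting error only. In 5 of the 9 (Hist2h2aa1, Hist2h2aa2, Hist2h2bb, Hist2h3b and Hist2h3c1) the whole annotated exon is covered by another annotated gene. All 100-base stretches of each also occur in a transcript of another gene, which can be the covering one. With the counting options used, reads there could not be assigned to a single gene, so the level of these genes is unknown. Hist1h2bq, also at 0, shared 94.8% of its stretches with 14 other genes, and the limit does not bound its level either. The remaining 3 genes at 0 shared 10.3% to 27.4%. In all these shares a gene lying on the same bases counts as another gene. The members shared less, with a median of 15.1% of their 100-base stretches against 52.3% in the protein-coding genes below the threshold. Hist1h2ap was the exception among the highest members, at 92.2%, shared with 32 other annotated genes. Another annotated gene, Gm44466 (a predicted microRNA, listed at 0), covers 28.6% of its exon. Its counts are therefore uncertain as to which H2A gene they came from. Hist3h2a is covered over 33.0% of its exon by Trim17 and Gm44313, and Hist1h2be over 11.2%.

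The members had more annotated sequence past the stem-loop than the other genes. Of the 19 protein-coding members, 13 had a transcript that runs more than 100 bases past it, against 10 of the 48 protein-coding genes below the threshold. A poly(A) signal in the last 50 bases was present in 10 of 19 and 7 of 48 genes. For 15 of the 48 the annotation ends at most 2 bases after the stop codon and holds no stem-loop to search, and for 2 members, Hist2h2be and Hist1h2bc, none was found in these letters. Longer exons also collect more reads (median exon length 1079 bases in members, 478 in the others), and these counts were not tested. The gene with the longest annotated sequence past the stem-loop, Hist1h1d with 4884 bases, had a total of 47, and Hist1h2ap, with 3 bases, had 2816.

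**Figure D2:**
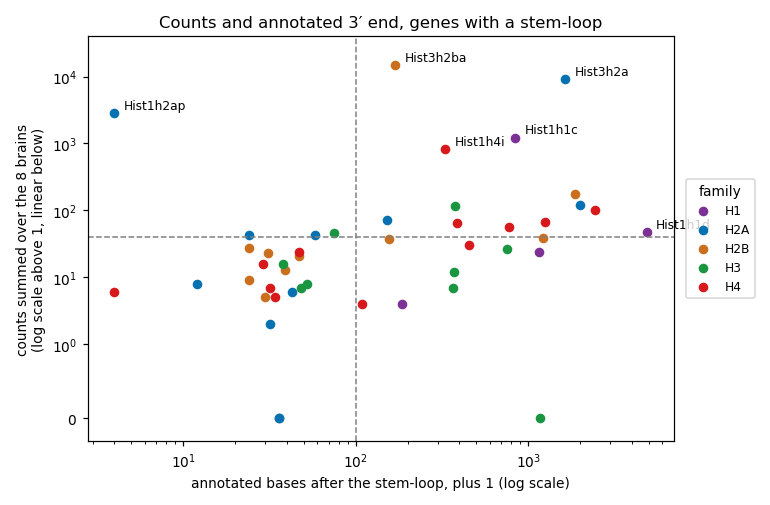
Counts summed over the 8 brains (vertical, log above 1) against the annotated bases after the stem-loop plus 1 (horizontal, log) for the genes with a stem-loop, coloured by family. Dashed lines mark the total of 40 and 100 bases past the stem-loop, and 13 of the 17 members with a stem-loop lie to the right, with Hist1h2ap at the far left.

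Per kilobase of exon the order changed. Hist3h2ba was highest, at 107 CPM per kb (94.2 to 117 over the brains), Hist1h2ap next at 26.2 (20.7 to 35), then Hist3h2a at 19.1 (17.3 to 20.3) and Hist2h2be at 7.08 (6.37 to 7.47). Hist1h4i was at 5.01, Hist1h2bc at 4.41 and Hist1h1c at 3.47, and their ranges over the brains overlap. Hist3h2bb-ps, a pseudogene, was at 1.04, Hist2h3c2 (H3) at 0.512 and Hist1h2ae (H2A) at 0.460. Most of the replication-independent variant genes make polyadenylated mRNA throughout the cell cycle. Of these variants, H3f3b (H3.3) was at 325 CPM per kb and H1f0 (the linker histone H1.0) at 130, above every member.

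Stress was compared with control to ask which of these genes differ in the fetal brain after the dam's exposure. Of the 20 members, 12 passed the filter on low counts. The edgeR quasi-likelihood test, with sex in the model and Benjamini-Hochberg adjustment over 17865 genes, called 3 of them higher in the stress brains, Hist1h2ap, Hist1h1c and Hist1h4i, all in the Hist1 cluster on chromosome 13. Among all genes tested 6.49% were called higher and 7.27% lower. No member was called lower by edgeR or by DESeq2, which called 5.1% of all genes lower. At an unadjusted p under 0.05 the edgeR counts were 4 members higher and 0 lower, beside 13.2% and 13.7% of all genes tested. Of the 12, 6 had a positive and 6 a negative log2 fold change, with a median of 0.02 beside 0.0015 over all genes tested.

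Hist1h2ap, which encodes a canonical H2A, had 274, 297, 296 and 303 counts in the control brains (F36, F37, M30 and M31) and 375, 330, 452 and 489 in the stress brains (F34, F35, M28 and M29). Every stress brain lay above every control brain, and both stress males lay above both stress females. Scaled to library size it was 10.4 ± 0.341 CPM (SD, n = 4) in control and 14.8 ± 1.81 in stress, a 1.41-fold difference (log2 fold change 0.50, SE 0.07, edgeR adjusted p = 1.65e-05). The DESeq2 Wald test gave 0.50 with an adjusted p of 6.59e-07.

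Hist1h1c, the gene of linker histone H1.2, had 105, 129, 147 and 131 counts in the control brains and 151, 173, 209 and 159 in the stress brains. The groups did not overlap, with the highest control (M30, 147) just under the lowest stress brain (F34, 151). The levels were 4.57 ± 0.616 CPM (SD, n = 4) in control and 6.26 ± 0.929 in stress, 1.37-fold higher (log2 fold change 0.45, SE 0.11, edgeR adjusted p = 0.00579). DESeq2 gave an adjusted p of 0.0139.

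Hist1h4i, an H4 gene, had 98, 82, 91 and 79 counts in the control brains and 110, 97, 116 and 139 in the stress brains. In counts, 1 control brain (F36, 98) lay above 1 stress brain (F35, 97), but after scaling to library size the groups did not overlap. The levels were 3.13 ± 0.366 CPM (SD, n = 4) and 4.16 ± 0.433, 1.33-fold higher in stress (log2 fold change 0.41, SE 0.12, edgeR adjusted p = 0.0178). This call was lost with DESeq2 (adjusted p = 0.0746) and without control F37 (0.0650), control M31 (0.0863) or stress M29 (0.101). The members whose groups did not overlap in CPM were these 3 of 12, where 16.4% of all genes tested did not overlap, and DESeq2 called 2 of the 12 where it called 4.19% of all genes higher.

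**Figure D3:**
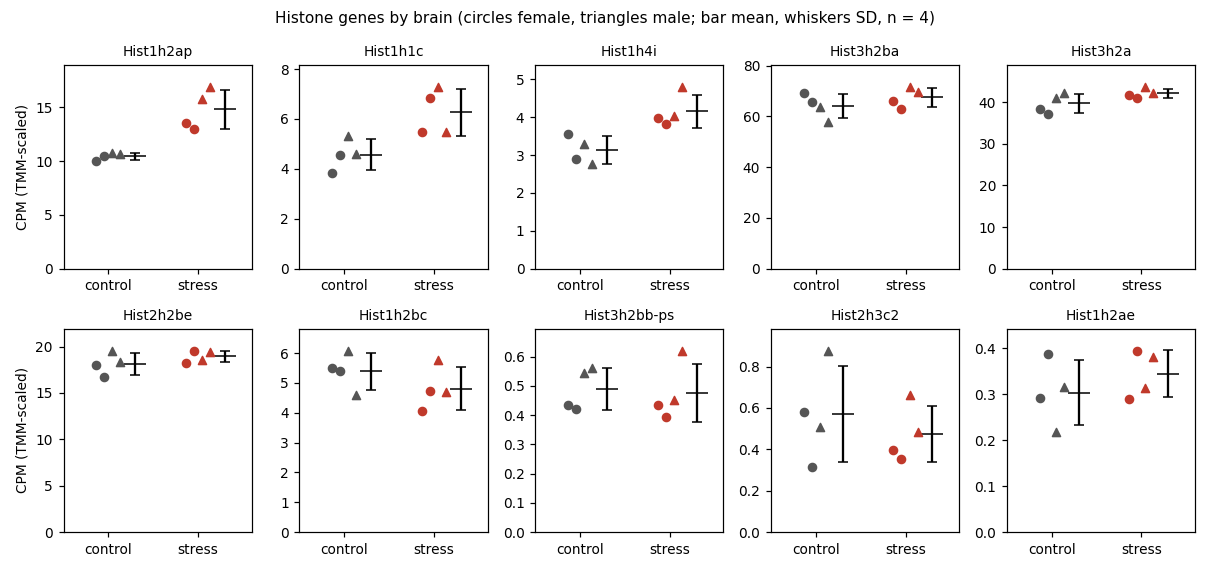
CPM in each brain for the 3 members called in the main comparison and the other members among the 10 highest per kilobase (vertical, CPM scaled by TMM, from 0; circles female, triangles male; bar mean, whiskers SD, n = 4). The stress points of Hist1h2ap, Hist1h1c and Hist1h4i lie above all control points, and the groups overlap in the other 7 genes.

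The other 9 tested members had log2 fold changes between -0.39 and 0.09, none with an adjusted p under 0.141. The 3 with the highest totals were measured closely. Hist3h2ba had 1899, 1866, 1758 and 1647 counts in control and 1822, 1599, 2055 and 2016 in stress, with a log2 fold change of 0.08 (SE 0.05, edgeR adjusted p = 0.284). Hist3h2a had 1057, 1056, 1132 and 1202 against 1151, 1041, 1254 and 1227 (0.09, SE 0.04, edgeR adjusted p = 0.141). The groups overlapped in both genes.

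Hist2h2be had 494, 474, 540 and 523 counts in control and 505, 494, 533 and 562 in stress (log2 fold change 0.06, SE 0.05). Hist1h2bc had 151, 153, 168 and 131 against 112, 120, 166 and 136 (-0.16, SE 0.11). The stress females were below the control females in Hist1h2bc and the males overlapped. Hist3h2bb-ps had 12, 12, 15 and 16 against 12, 10, 13 and 18, Hist2h3c2 had 16, 9, 14 and 25 against 11, 9, 19 and 14, and Hist1h2ae, which the filter left out, had 8, 11, 6 and 9 against 8, 10, 9 and 11. These last genes had few counts and overlapping groups. For the 5 tested members with totals under 200 the SE was 0.23 to 0.30, so differences the size of the 3 called ones were not detectable there, whereas the SE was 0.04 to 0.12 for the other 7.

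**Figure D4:**
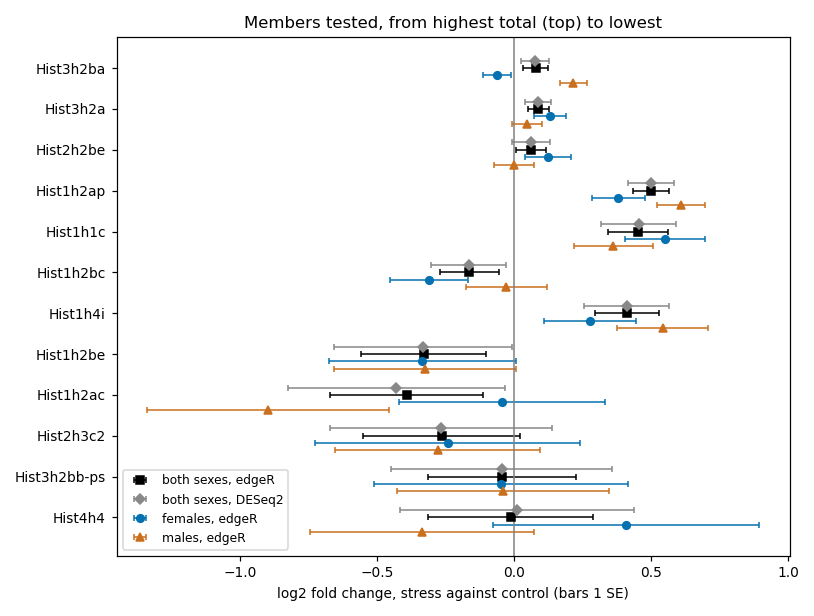
Log2 fold change, stress against control, of the 12 tested members (horizontal, bars 1 SE), from the highest total at the top, for both sexes with edgeR and DESeq2 and for each sex alone. Hist1h2ap, Hist1h1c and Hist1h4i stand at 0.41 to 0.50 in both sexes together, the abundant Hist3h2ba, Hist3h2a and Hist2h2be lie near 0, and the bars widen toward the bottom.

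The summed level of the class was 153 ± 4.21 CPM (SD, n = 4) in control and 166 ± 7.25 in stress, between 149 and 156 in control brains and between 160 and 174 in stress brains. The Hist1 cluster went from 28.5 ± 1.11 to 35.5 ± 2.48 CPM. Without the 3 called genes the rest of Hist1 stood at 10.4 ± 0.744 and 10.3 ± 0.759 CPM. Of this rest, Hist1h2bc alone made up 5.39 CPM in control and 4.81 in stress. The 3 genes were left out because they were higher in these data, so this rest does not show that the other genes were level. Hist2 stood at 19.3 ± 1.25 and 20.1 ± 0.611, and Hist3 at 104 ± 3.10 and 110 ± 4.90. By family the difference in CPM was 1.80 in H1, 6.78 in H2A, 3.49 in H2B, 0.192 in H3 and 1.40 in H4. Without genes covered over more than 10% of their exon by another gene the class stood at 100.3 ± 4.97 and 107 ± 4.42 CPM, and the difference of 13.7 CPM fell to 6.88. These sums were not tested.

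The sexes were compared next. No member was called for a sex by stress interaction by edgeR, where 1 gene of all tested (0.0056%) was called, and DESeq2, which called 0.0112% of all genes, called no member either. At an unadjusted p under 0.05 edgeR gave 1 of the 12 members, beside 6.31% of all genes. That member was Hist3h2ba, whose log2 difference between the male and the female response was 0.28 (SE 0.07, edgeR adjusted p = 0.446). Its log2 fold change was -0.06 (SE 0.05) in females and 0.22 (SE 0.05) in males.

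In the females alone, where 3.91% of all genes were called, 2 members were called, both higher in stress, Hist1h2ap (0.38, edgeR adjusted p = 0.0201) and Hist1h1c (0.55, adjusted p = 0.0263). In the males alone, where 8.49% were called, 3 were called, all higher, Hist1h2ap (0.61, edgeR adjusted p = 2.74e-05), Hist3h2ba (0.22, adjusted p = 0.00471) and Hist1h4i (0.54, adjusted p = 0.0358). Hist1h1c was at 0.36 in males (adjusted p = 0.119) and Hist1h4i at 0.28 in females (adjusted p = 0.408). With DESeq2 the counts were 0 in females, where it called 0.696% of all genes, and 1, Hist1h2ap, in males, where it called 2.09%. A call in 1 sex only does not show a difference between the sexes. Between males and females over both conditions no member was called by edgeR, 0.0896% of all genes were, and 4 members had an unadjusted p under 0.05 beside 5.91% of all genes, among them Hist1h2ap at 0.19 (SE 0.07) higher in males.

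The genes that make and handle histones were read from the same fit, in lists that were chosen with results of these data known. The lists overlap. Mcm2, Nasp and Chaf1b are also S-phase genes, and so are Slbp and Casp8ap2. Of 21 tested genes that process histone pre-mRNA, 1 rose and 1 fell, with a median log2 fold change of 0.01. Among all genes tested 6.49% were called higher and 7.27% lower. Lsm11, a subunit of the U7 small nuclear RNP, fell from 102 ± 3.74 to 92.9 ± 4.43 CPM (-0.13, edgeR adjusted p = 0.00694), and Ncbp1, the large subunit of the nuclear cap-binding complex, rose by 0.09 (adjusted p = 0.0439). Cpsf3, the endonuclease that makes the cut, was at 0.08 (adjusted p = 0.119). Slbp was at 52.4 ± 0.240 and 54.1 ± 1.08 CPM (0.05, adjusted p = 0.429). Npat, the activator of the histone clusters, was at 0.10 (adjusted p = 0.147) and Casp8ap2, another protein of the histone locus body, at 0.0049 (adjusted p = 0.960).

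Of 23 histone chaperones and importers 7 rose and none fell, with a median of 0.05, beside 6.49% of all genes higher and 7.27% lower. Among these were Anp32e, the chaperone that removes H2A.Z, at 0.21 (edgeR adjusted p = 1.67e-05), the replicative helicase subunit Mcm2 at 0.23 (adjusted p = 0.000355), Supt16, a subunit of FACT, at 0.13 (adjusted p = 0.00743), and Asf1a, an H3-H4 chaperone, at 0.20 (adjusted p = 0.00789). Of the 11 replication-independent variants 6 rose and none fell, with a median of 0.10. H1f0 rose from 226 ± 6.33 to 308 ± 17.1 CPM (0.45, adjusted p = 2.89e-09), H3f3b from 858 ± 6.71 to 1079 ± 42.8 (0.33, adjusted p = 1.46e-08) and Cenpa, the centromeric H3, from 29.7 ± 0.795 to 36.5 ± 1.41 (0.30, adjusted p = 3.95e-05). None of these overlapped between groups, where 16.4% of all genes tested did not, but they were picked by small p. H3f3a was at 0.10 (adjusted p = 0.0176).

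Of the 43 S-phase genes 23 rose and none fell, with a median of 0.19, beside 6.49% of all genes higher. The 4 with the smallest p were Rrm2 (0.29) and Rrm1 (0.21), the 2 subunits of ribonucleotide reductase, Tipin (0.29), which holds replication forks together, and the deubiquitinase Usp1 (0.22). Their groups did not overlap, as in 16.4% of all genes tested, and a choice by small p favours such genes. The called members Hist1h2ap, Hist1h1c and Hist1h4i lay at 0.41 to 0.50, and the other 9 tested members at -0.39 to 0.09. The called members and these 4 genes were both picked by their results, so their sizes cannot be ranked against each other. The difference was not tested.

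**Figure D5:**
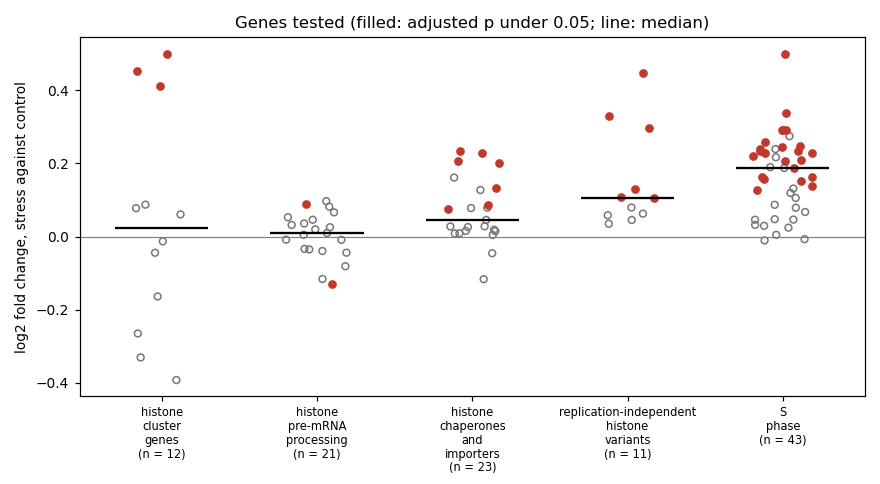
Log2 fold change, stress against control, of the tested genes in the histone clusters and in the 4 lists of genes that process, carry, replace or accompany histones (filled points adjusted p under 0.05, line median). In the histone clusters 3 of 12 genes are filled and lie at 0.41 or higher. The medians are 0.02 in the histone clusters, 0.10 in the variants and 0.19 in the S-phase genes.

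Markers of the cell types in the tissue were read from the same fit. Their summed levels overlapped between the groups in every list except the endothelial one. Among all genes tested 6.49% were called higher and 7.27% lower. Of 8 radial glia markers 4 rose and none fell (summed level 1528 to 1621 CPM in control, 1558 to 1685 in stress), with Pax6, Vim, Sox2 and Nes at 0.12 to 0.14. The other 4 were not called and all had negative values, Hes5 at -0.097, Hes1 at -0.076, Slc1a3 at -0.037 and Fabp7 at -0.016, and the median of the list was 0.05. Of 8 neuron markers none rose and 4 fell (6479 to 6707 and 6354 to 6628 CPM), among them Syn1 at -0.18, with a median of -0.08. Dcx, which was not called, was at 0.056. Of 5 endothelial markers none rose and 3 fell (129 to 142 and 115 to 125 CPM), and none of 5 microglial markers was called (29.5 to 33.2 and 28.6 to 32.3 CPM). Of 9 tested erythroid genes 2 rose, the embryonic globins Hba-x and Hbb-y, and 1 fell, Hbb-bs (366 to 415 and 373 to 388 CPM).

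Choroid plexus markers were low and uneven (2.22 to 10.1 CPM in control, 2.45 to 32.6 in stress), with Ttr alone called, and the highest brain was stress F34. Of 4 tested markers of meninges and mesenchyme 3 rose (12.4 to 25.7 and 17.0 to 59.9 CPM), with a median log2 fold change of 0.92, and the highest brain was stress M28. Without F34 and without M28 in turn, all 3 calls among the members were kept. Leaving out a brain does not remove these cells from the others, however. The meningeal sum was 28.8 CPM in stress F34, 17.0 in F35 and 25.0 in M29. The part of these cells in the differences of the histone genes was not tested, and fewer cells of a type and less RNA per cell cannot be told apart in bulk tissue.

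RNAs mostly known without a long poly(A) tail were looked at beside the members, since the histone mRNAs cut after the stem-loop belong to that kind. Of the 11 found, 3 were tested, none rose and 2 fell, beside 6.49% of all genes higher and 7.27% lower. The 2 were the mitochondrial ribosomal RNAs mt-Rnr1 (-0.17, edgeR adjusted p = 0.000134) and mt-Rnr2 (-0.11, adjusted p = 0.00559). These carry short poly(A) tails of their own and so do not measure the capture of RNA without a tail. Rn7sk, the tested member without one, had 80 counts in all (0.52, adjusted p = 0.364), Terc had 45, and the other 7 had between 0 and 5. The summed level was 2081 to 2247 CPM in control and 1849 to 2068 in stress, set almost wholly by the mitochondrial RNAs. Whether a difference in capture contributed to the differences of the histone genes was not tested.

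The promoters of the called members are shown because these genes differed in the same direction. RefSeq (GRCm38.p6) gave 300 bases around the start for 60 of the 70 genes, and Hist1h2ap was not matched. The 150 bases before the start are printed 5′ to 3′ on the gene's strand. Capitals mark the CCAAT box, TATAAA (the letters of the TATA box, wherever they stand) and the octamer motif (ATTTGCAT), each on either strand.
Hist1h1c, chr13:23738657-23738806, plus strand: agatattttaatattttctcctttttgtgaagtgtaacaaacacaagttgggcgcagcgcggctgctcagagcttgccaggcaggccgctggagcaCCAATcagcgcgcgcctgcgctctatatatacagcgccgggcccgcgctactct
Hist1h4i, chr13:22041363-22041512, minus strand: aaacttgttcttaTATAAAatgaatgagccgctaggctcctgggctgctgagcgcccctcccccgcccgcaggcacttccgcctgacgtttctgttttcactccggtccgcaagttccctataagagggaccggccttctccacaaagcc
Hist3h2ba, chr11:58948761-58948910, plus strand: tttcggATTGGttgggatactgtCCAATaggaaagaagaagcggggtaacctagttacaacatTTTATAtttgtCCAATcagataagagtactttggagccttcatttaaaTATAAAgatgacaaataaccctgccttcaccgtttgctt
Hist3h2ba, which was not called in both sexes together, is printed beside them as the member with the highest count. The CCAAT box, in either orientation, was in 51 of the 60 histone promoters (85.0%), counting 250 bases before and 50 after the start, against 37.9% of 27025 promoters of all genes. TATAAA was in 35 (58.3%, all genes 14.2%), the octamer ATTTGCAT in 13 (21.7%, all genes 1.75%) and TTTGAA, the core of the cell cycle genes homology region, in 28 (46.7%, all genes 18.1%). Among the 14 members with a promoter, 11 had CCAAT, 8 TATAAA, 4 ATTTGCAT and 8 TTTGAA. Every one of the 16 H2B promoters had CCAAT. The promoters are not all separate counts. Some lie on the same bases on opposite strands, such as those of Hist1h2aa and Hist1h2ba, and Hist1h2bq and Hist1h2br have the same 150 bases before the start. Hist1h1c had CCAAT without TATAAA, though the unmarked letters tatatata stand between its CCAAT box and the start. Hist1h4i had TATAAA without CCAAT. That TATAAA lies near the end of the printed bases farthest from the start, and the unmarked letters tataag stand nearer the start. A match describes letters in the window only.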

How the data were processed

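RNA of 8 fetal mouse brains was sequenced by the authors from oligo(dT)-captured mRNA, 1 library per brain. Per the study's methods and the file headers, reads were trimmed with Trim Galore, aligned to mm10 with TopHat2 2.1.1 and counted per gene on exons with featureCounts 1.6.3, with no strand, multimapping or overlap option among those given. The deposited values are raw counts per gene, neither normalized nor filtered. Group and sex were taken from the labels, litter from the study's sample list. Library totals were 25320109 to 29105710 counts.

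Genes were filtered (filterByExpr by group, minimum count 10), normalized by TMM and tested with edgeR 4.0.16 in R 4.3.3 (glmQLFit, glmQLFTest; sex and condition), with Benjamini-Hochberg adjustment over all genes kept and calls at an adjusted p under 0.05. The SE was the log2 fold change over the square root of F. CPM used TMM-scaled totals. DESeq2 1.42.0, other size factors, no filter, no sex term and leaving out each brain were alternatives. The fits were run on simulated counts with the same dispersion for every gene and no litter effect. This checks the code and does not give the error rate in these data. Symbols and transcripts came from GENCODE vM21 (the files used an earlier release on the same build), and later names and promoters from RefSeq.

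The members and the gene lists were chosen with earlier results of these data known. Values by brain were given for the members called and for the 10 highest per kilobase, totals for the 2 members above and 2 genes below the threshold of 40, and from each other list up to 4 genes with the smallest p plus Slbp, Npat, Lsm11 and Casp8ap2. Genes named outside this rule, such as Hist1h1d and Terc, were chosen after their values were seen.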

Additional observations from a re-analysis of the deposited data

How the results depend on the processing

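The count of 3 members higher in stress was 3 with median-of-ratios or upper-quartile size factors, without the filter, without the sex term and with library totals that left out the histone genes, 2 with DESeq2, and 2 to 3 when each brain was left out. No member was lower under any of these. Hist1h2ap and Hist1h1c were called in all 14 alternatives, Hist1h2ap with adjusted p between 3.39e-10 and 0.000313 and Hist1h1c between 0.000353 and 0.0362, and Hist1h4i in 10 of 14, between 0.00881 and 0.101. The members called within females went from 2 to 0 with DESeq2 and within males from 3 to 1. The difference in summed level of 13.7 CPM was 6.88 without genes covered by another gene, which by construction leaves out Hist1h2ap and Hist3h2a. Direction changed in Hist4h4, to 0.0094 with DESeq2 and between -0.16 and 0.20 when each brain was left out, and in Hist3h2bb-ps, between -0.15 and 0.055 when each brain was left out. The interaction gave no member called with DESeq2 or without the filter, the alternatives run for it. No paired analysis was possible because the control brains shared a litter and the stress brains shared another, so no stress brain is tied to a control brain. Litter and condition cannot be told apart at any setting, and members with under 200 counts in all had too few counts to show differences of the size called elsewhere.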

Other observations

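Members below the filter were described without it. The 8 members left out of the main comparison had totals of 43 to 72 and at most 11 counts in a brain. In the fit without the filter, 6 of the 8 had a positive and 2 a negative log2 fold change, with SEs of 0.35 to 0.48, and none had an edgeR adjusted p under 0.219. The lowest of these belonged to Hist1h3c, an H3 gene (log2 fold change 1.04, SE 0.47). It had 5, 4, 2 and 4 counts in the control brains and 6, 9, 10 and 6 in the stress brains. Its groups did not overlap, as in 16.4% of the genes that passed the filter, and it was picked as the lowest of the 8. Summed over these 8 members, the brains held 38 to 56 counts in control and 52 to 64 in stress. Summed over the 50 genes below the threshold, they held 50 to 77 in control and 72 to 86 in stress. These sums were not tested.

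The annotation places a predicted microRNA on 19 of the 20 H2A genes. The 19 microRNA annotations over histone genes held 3 counts in all brains together. The genes that cover the 5 fully covered Hist2 genes had totals of 170 for Gm20632, 101 for Gm20634, 69 for Gm20633, 42 for Gm20628 and 13 for Gm42743. Reads lying wholly on the shared bases were assigned to neither gene, so these totals do not give the level of the 5 Hist2 genes.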
